A study of Homo sapiens with 95 samples.

Results

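Genes of the phosphoinositide 3-kinase (PI3K) and AKT signalling pathway were followed across a panel of perturbed airway cells. The set held 9 genes chosen by symbol: the catalytic subunits PIK3CA and PIK3CB, the regulatory subunits PIK3R1 and PIK3R2, the kinases AKT1 and AKT2, the adaptors IRS1 and IRS2, and the transcription factor FOXO3. All 9 were among the 23895 gene symbols listed for every well. The samples were 95 wells of AALE, an immortalized line of human bronchial epithelium, and their RNA was counted by 3′DGE (digital gene expression), in which each captured molecule carries a unique molecular identifier (UMI) and is read at the 3′ end of its transcript. Of these wells, 82 had replicate numbers of 1 digit and entered the comparisons, and the other 13 are given apart. Whether those 13 were repeats of a replicate or separate wells is not given by the labels.

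The panel comprised 8 populations. PIK3CA, NRF2 (gene NFE2L2), FGFR1 and NRG1 were each overexpressed, and their control carried an empty vector with the red fluorescent reporter HcRed. FAT1 and CDKN2A were each knocked out by CRISPR, and their control, GFP, received the Cas9-EGFP plasmid PX458 with no guide. The labels did not say whether the introduced PIK3CA was wild type or mutant, nor whether a knockout was 1 clone. Each population was exposed to the solvent DMSO, to cigarette smoke condensate (CSC) at 24 µg/ml, to benzo[a]pyrene (BaP) at 173 µM or to the tobacco nitrosamine NNK at 490 µM. Every plate row held a single chemical, and the wells of a population stood in the same columns under each chemical, so chemical and plate row, and population and plate position, cannot be told apart. The labels did not say whether wells of a group were separate cultures, so p-values measure the spread between wells.

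In this pathway, activated growth factor receptors engage IRS1 and IRS2, which bring PI3K to the membrane. A regulatory subunit holds and steadies the catalytic subunit until then. The lipid that PI3K makes recruits AKT, and AKT phosphorylates FOXO proteins, which keeps them out of the nucleus, and relieves the brakes on the growth kinase complex mTORC1. A known feedback runs through FOXO: genes that FOXO proteins activate, several receptor and adaptor genes among them, are transcribed less when AKT is active. The comparison of PIK3CA cells with HcRed cells asked whether other genes of the pathway changed their RNA levels when PIK3CA was raised.

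Because FOXO3 is a DNA-binding member, promoters were searched for TGTTTAC, the core forkhead motif, on both strands in the 250 bases before each annotated start site (RefSeq, GRCh38.p14). The motif was in 1046 of 35116 promoter windows of all genes (2.98%). Among the 18 windows of the 9 genes it was in 1, that of PIK3CA itself. Among FOXO target genes, a list described further on, 29 of 39 genes had a window and 4 of their 41 windows held it (9.76%); one of these belonged to TXNIP, the FOXO target gene with the lowest p-value in PIK3CA cells. These windows are shown with the motif in capitals, on the coding strand. In PIK3CA (chr3:179148107-179148356, plus strand) its first base lay at position -149 from the start site, and in TXNIP (chr1:145996580-145996829, minus strand) it was present as its reverse complement from position -124.
PIK3CA: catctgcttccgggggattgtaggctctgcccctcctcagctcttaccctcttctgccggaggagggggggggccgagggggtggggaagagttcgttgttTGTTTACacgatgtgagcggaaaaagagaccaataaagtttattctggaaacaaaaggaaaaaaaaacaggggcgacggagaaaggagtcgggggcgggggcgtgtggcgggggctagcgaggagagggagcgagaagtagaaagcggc
TXNIP: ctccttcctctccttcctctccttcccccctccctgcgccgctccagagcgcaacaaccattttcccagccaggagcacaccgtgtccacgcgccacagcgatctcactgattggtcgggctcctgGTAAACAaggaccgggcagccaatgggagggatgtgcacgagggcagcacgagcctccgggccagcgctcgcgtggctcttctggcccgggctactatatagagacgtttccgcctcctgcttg
A match of letters is a description and not a measured site. No chromatin or binding data were part of the series, and a PIK3CA copy introduced on a vector does not carry this promoter.

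The 82 wells held between 692446 and 1895735 counts each (median 1293615), so that a single count was worth 0.527 to 1.44 CPM (the count as a share of the well total, scaled to 1000000), and a well with no count allows a level of up to 3 counts, or 1.58 to 4.33 CPM. All members were thinly covered, with median counts per well from 2 to 8 and totals over the 82 wells from 139 (AKT2) to 775 (PIK3CB). Mean levels lay between 1.36 and 7.27 CPM, all in counts of 3′ ends. Each comparison below tested all 9 members by limma-voom among the genes with a mean count above 1, with p-values adjusted over all tested genes and 0.05 as threshold. The targeted genes moved as labelled: PIK3CA, NFE2L2, FGFR1 and NRG1 rose in their own populations by 2.45, 1.8, 2.48 and 6.73 on the log2 scale, and FAT1 and CDKN2A fell by 1.67 and 0.89. All 15 bronchial epithelial markers were detected, while 3 of 7 immune, 2 of 4 endothelial and 2 of 4 listed ciliated or secretory airway markers had no count in any of the 82 wells. The 7 immune markers still summed to 9.57 to 46.3 CPM per well. All 7 fibroblast markers had counts in some well, 6 of them below 1 CPM on average.

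1 well stood apart. The library labelled NRG1 NNK replicate 2, of 1474903 counts, had the highest level of all 82 wells for 5 of the 9 members. Its PIK3R1 level was 31.9 CPM against 4.13 and 6.10 CPM in the other two wells of its group, and its FOXO3 level was 27.1 CPM against 4.07 and 7.44 CPM. PIK3R2 (16.3 CPM), IRS2 (14.9 CPM) and AKT2 (4.75 CPM) were also highest there, PIK3CB stood at 21.7 CPM, and AKT1, at 3.39 CPM, lay within the range of its group. Comparisons that include this well are given with and without it where a member's call or the share of passing genes changed.

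**Figure D1:**
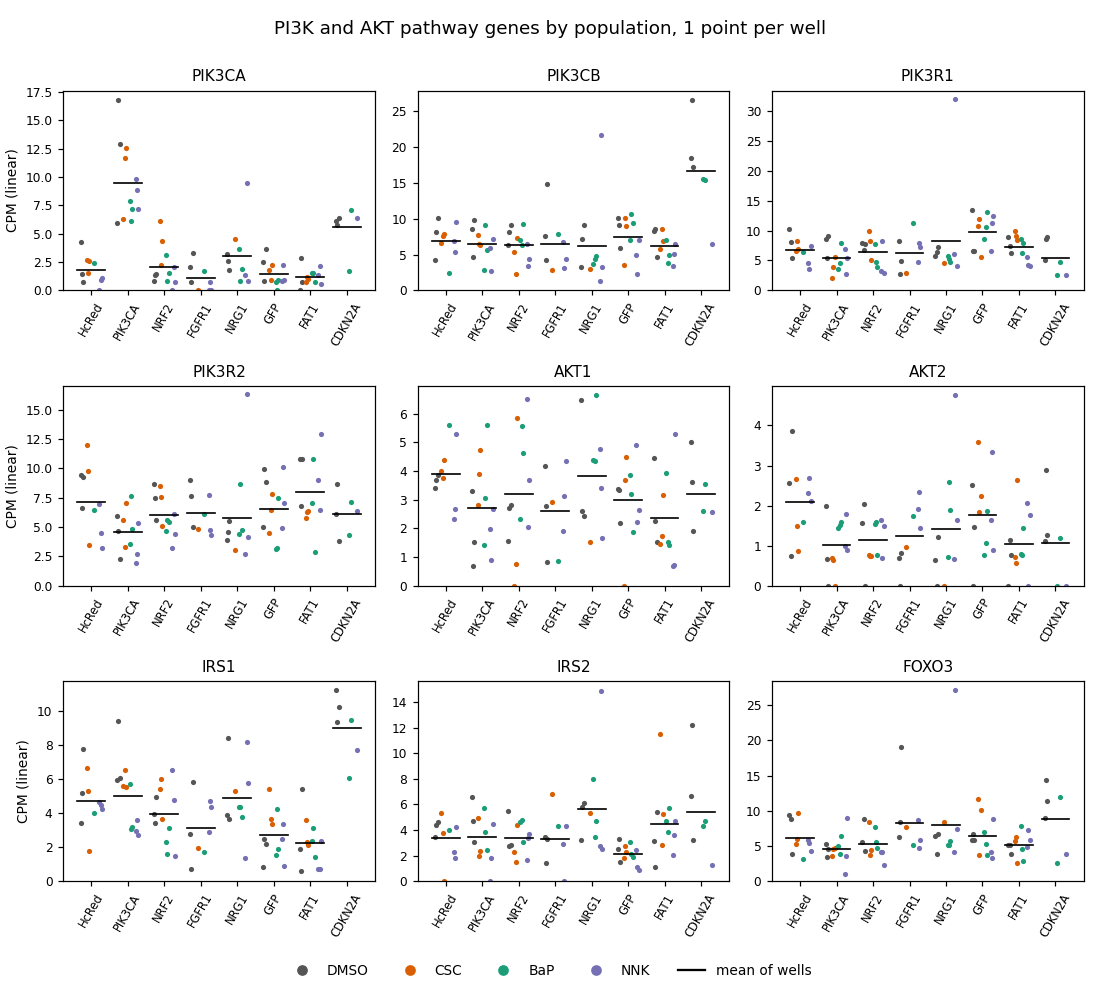
Levels of the 9 genes in CPM on a linear axis, 1 panel per gene and 1 point per well for the 82 wells with 1-digit replicate numbers, grouped by population and coloured by chemical; the line is the mean of the wells of a population. PIK3CA is high in PIK3CA cells, PIK3CB and IRS1 are high in CDKN2A cells, and the isolated NNK point in the NRG1 column is NRG1 NNK replicate 2.

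PIK3CA encodes the catalytic alpha subunit of PI3K and lies at chr3:178865902-178957881 on the plus strand of hg19, the build of the counts. The 3 PIK3CA wells under DMSO held 5.96, 16.8 and 12.9 CPM of it, against 4.28, 1.47 and 0.774 CPM in the 3 HcRed wells. Every PIK3CA well lay above every HcRed well. The log2 difference was 2.47 (SE 0.57, 95% interval 1.33 to 3.60, adjusted p = 0.00211), while 5.4% of all tested genes passed in that comparison. Over DMSO, CSC and NNK together (9 wells a population, chemical as covariate) it was 2.45 (SE 0.31, adjusted p = 6.65e-09), with 14.9% of tested genes passing. Against the mean of NRF2, FGFR1 and NRG1 cells under DMSO and NNK it was 2.57 (SE 0.30, adjusted p = 7.94e-09), with 2.91% passing. In the last comparison the share of genes passing rose to 7.47% and the PIK3CA difference to 2.66 without NRG1 NNK replicate 2, and the other 8 members still did not pass. These values check the label and are not a response of the pathway. The counts do not separate the introduced copy from the resident gene.

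Summed over the 12 wells of PIK3CA cells, PIK3CA stood at 9.52 CPM (95% Poisson interval 8.05 to 11.2, which like the other intervals of this kind covers counting error only). CDKN2A knockout cells came next at 5.57 CPM (4.02 to 7.53, 6 wells). NRG1 cells were at 3.12 CPM, or 2.35 CPM (1.58 to 3.38) without the well that stood apart, and NRF2, HcRed, GFP, FAT1 and FGFR1 cells followed from 2.06 down to 1.19 CPM with intervals that overlapped one another. The wells behind these sums were spread unevenly over the chemicals, since HcRed, FGFR1, NRG1 and CDKN2A had fewer than 3 wells with 1-digit numbers under some of them.

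In PIK3CA cells none of the other 8 members passed the threshold in any of these comparisons. Over the 3 chemicals, 6 of the 8 had a negative log2 difference and 2 a positive one, with a median of -0.42, while the median over all 11108 tested genes was -0.022. At an unadjusted p under 0.05 there were 3 of the 8, PIK3R2, AKT2 and FOXO3, as were 26.9% of all tested genes.

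PIK3CB, the catalytic beta subunit (chr3:138371540-138553770, minus strand), held 8.61, 4.70 and 9.88 CPM in the DMSO wells of PIK3CA cells and 4.28, 8.09 and 10.1 CPM in those of HcRed cells. The groups overlapped. Its log2 difference over chemicals was -0.12 (SE 0.22, 95% interval -0.55 to 0.32, adjusted p = 0.793), an interval that leaves out a change of 1 in either direction.

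Of the regulatory subunits, PIK3R1 (chr5:67511568-67597649, plus strand) ranged from 2.10 to 9.12 CPM with a median of 5.38 CPM in the 9 PIK3CA wells, and from 3.57 to 10.3 CPM with a median of 7 CPM in the 9 HcRed wells. Its log2 difference was -0.29 (SE 0.22, 95% interval -0.73 to 0.15, adjusted p = 0.444). PIK3R2 (chr19:18263973-18281342, plus strand) was lower in the DMSO wells of PIK3CA cells, at 5.96, 4.70 and 2.28 CPM, than in those of HcRed cells, at 9.41, 6.62 and 9.29 CPM. These groups did not overlap under DMSO but did under CSC and NNK. The log2 difference of PIK3R2 was -0.88 under DMSO (SE 0.41, adjusted p = 0.25), -0.64 over chemicals (SE 0.25, 95% interval -1.14 to -0.14, adjusted p = 0.0746) and -0.57 against the other overexpression populations (SE 0.29, adjusted p = 0.347). It passed in 1 of the 18 fits that left out a well. PIK3CA cells had the lowest summed PIK3R2 level of the 8 populations, 4.63 CPM (3.63 to 5.82), with NRG1 NNK replicate 2 included. Without that well NRG1 cells were lower, at 4.55 CPM (3.43 to 5.9). FAT1 cells had the highest level, 7.98 CPM (6.73 to 9.39). Neighbours in the order had overlapping intervals.

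AKT1 (chr14:105235686-105262088, minus strand) and AKT2 (chr19:40736224-40791443, minus strand) encode closely related kinases that act directly below PI3K. AKT1 held 3.31, 0.671 and 1.52 CPM in the DMSO wells of PIK3CA cells and 3.42, 3.68 and 3.87 CPM in those of HcRed cells. All 3 HcRed wells were higher. Over chemicals the AKT1 difference was -0.55 (SE 0.33, 95% interval -1.21 to 0.11, adjusted p = 0.295). AKT2, the least covered member, held 1.99, 0.671 and 0 CPM against 2.57, 0.735 and 3.87 CPM under DMSO. Its log2 difference was -1.08 over chemicals (SE 0.42, 95% interval -1.93 to -0.23, adjusted p = 0.0777) but -0.08 against the other overexpression populations (SE 0.47, 95% interval -1.03 to 0.87, adjusted p = 0.965). AKT2 was also at -0.84 in NRF2, -0.84 in FGFR1 and -0.89 in NRG1 cells against HcRed, none of which passed, and these comparisons share their HcRed wells with that of PIK3CA. HcRed cells had the highest summed AKT2 level, 2.05 CPM (1.30 to 3.08). With NRG1 NNK replicate 2 included, PIK3CA cells had the lowest, 1.02 CPM (0.58 to 1.65). Without that well NRG1 cells were lower, at 0.974 CPM (0.503 to 1.7). All these intervals overlapped.

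IRS1 and IRS2, the adaptors that carry insulin and IGF signals to PI3K, gave no call in either direction. IRS1 (chr2:227596028-227664536, minus strand) held 5.96, 9.4 and 6.08 CPM in PIK3CA cells under DMSO against 3.42, 5.15 and 7.74 CPM in HcRed cells, and its difference over chemicals was 0.29 (SE 0.24, 95% interval -0.18 to 0.77, adjusted p = 0.478). IRS2 (chr13:110405042-110438930, minus strand) held 6.62, 4.70 and 3.04 CPM against 3.42, 4.41 and 4.65 CPM, with a difference over chemicals of 0.12 (SE 0.32, 95% interval -0.52 to 0.76, adjusted p = 0.863). The wells of the populations overlapped for both genes. A fall of IRS2 by 1 on the log2 scale lay outside its interval.

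FOXO3 (chr6:108881038-109005977, plus strand) held 5.30, 3.36 and 4.56 CPM in the DMSO wells of PIK3CA cells against 9.41, 8.82 and 3.87 CPM in HcRed cells. 1 HcRed well lay within the range of the PIK3CA wells. The log2 difference was -0.57 over chemicals (SE 0.25, 95% interval -1.07 to -0.06, adjusted p = 0.127) and -0.64 against the other overexpression populations (SE 0.32, adjusted p = 0.345; -0.52 without NRG1 NNK replicate 2). Its level is uncertain, because FOXO3B (chr17:18570942-18585627) is a near-identical copy to which reads may be assigned; FOXO3B was listed with 0.873 to 2.79 CPM summed per population.

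**Figure D2:**
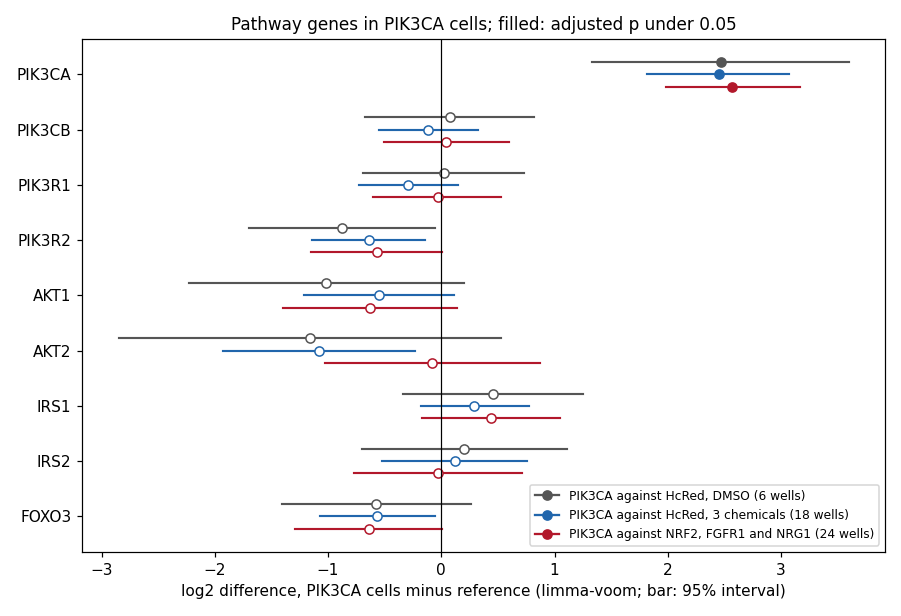
Log2 differences (limma-voom, x axis) of the 9 genes (y axis) between PIK3CA cells and 3 references, with 95% intervals as bars; filled points have an adjusted p under 0.05. Filled points appear for PIK3CA alone, between 2.45 and 2.57, and the bars of the other 8 genes lie around or below 0.

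The feedback question was also put to the response to chemicals, by testing whether CSC or NNK changed a gene differently in PIK3CA and HcRed cells. None of the 9 members passed. Over all genes limma-voom called 0 of 11237 for CSC (0%; 649 at an unadjusted p under 0.05; edgeR called 1 and DESeq2 called 0) and 1 of 11023 for NNK (0.00907%). The intervals of the members were wide: for IRS2 the difference of the NNK responses was -0.95 with a 95% interval from -2.70 to 0.80.

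Other pathway genes were read from lists grouped by role. Among 6 tested genes of further PI3K subunits none passed in any of the PIK3CA comparisons. Of 9 tested receptors and adaptors, 2 fell over chemicals (22.2%, with 14.9% among all tested genes): IGF1R, the type 1 insulin-like growth factor receptor, by 0.70 (SE 0.22, adjusted p = 0.0181), and GRB2, an adaptor, by 0.34 (SE 0.11, adjusted p = 0.032). IGF1R ranged from 3.15 to 12.2 CPM with a median of 6.90 CPM in the 9 PIK3CA wells and from 7.42 to 16.2 CPM with a median of 10.5 CPM in the 9 HcRed wells, so the ranges overlapped. Both calls were fragile, since IGF1R passed in 16 and GRB2 in 11 of the 18 fits without 1 well, and neither passed against the other overexpression populations. Against the same HcRed wells GRB2 was also lower in NRF2 cells (-0.41, adjusted p = 0.0109), where IGF1R was at -0.45 (adjusted p = 0.126). In FGFR1 and NRG1 cells against HcRed, GRB2 was at 0.07 and -0.05 and IGF1R at 0.03 and -0.05, none passing. The NRG1 values include NRG1 NNK replicate 2, and values without it are not given here. GRB2 had a median of 22.5 CPM (18.8 to 69.8) in the 6 NRG1 wells and 28.9 CPM (22.3 to 36.8) in the 6 HcRed wells. For IGF1R the medians were 8.67 CPM (6.48 to 21.7) and 9.56 CPM (7.42 to 16.2).

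Among 13 tested phosphatases and inhibitors of the pathway, INPP4B and PPP2CA rose over chemicals (15.4%, with 14.9% among all tested genes). INPP4B removes a phosphate from a lipid that AKT binds. Its level was 47.0, 45.0 and 39.5 CPM in the DMSO wells of PIK3CA cells and 23.1, 30.9 and 25.6 CPM in those of HcRed cells, with no overlap. The log2 difference was 0.78 under DMSO (SE 0.18, adjusted p = 0.00244), 0.77 over chemicals (SE 0.11, adjusted p = 6.28e-08) and 0.90 against the other overexpression populations (SE 0.12, adjusted p = 4.13e-07). It passed in every alternative fit of these comparisons. INPP4B was also higher in CDKN2A than in GFP cells under DMSO (2.04, adjusted p = 8.79e-10) and lower in GFP than in HcRed cells (-1.06, adjusted p = 5.26e-08). PPP2CA, the catalytic subunit of protein phosphatase 2A, rose over chemicals by 0.38 (SE 0.10, adjusted p = 0.0034). It did not pass under DMSO (0.38, adjusted p = 0.196) or against the other overexpression populations (0.35, adjusted p = 0.196).

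At the level of AKT, 1 of 13 tested kinases and substrates passed over chemicals (7.69%, below the 14.9% of all genes). SGK1, a kinase related to AKT, ranged from 17.5 to 32.3 CPM in the 9 PIK3CA wells and from 14.6 to 51.9 CPM in the 9 HcRed wells and fell by 0.48 (SE 0.13, adjusted p = 0.00461). It fell by 0.58 against the other overexpression populations (SE 0.14, adjusted p = 0.00836), a call that was lost in the DMSO wells alone. Against HcRed under DMSO alone SGK1 did not pass (-0.44, adjusted p = 0.268). Of 31 tested mTOR genes 2 passed (6.45%, also below the share of all genes). EIF4E, the cap-binding translation factor, rose by 0.23 (SE 0.05, adjusted p = 0.000444) and EIF4EBP1, which restrains it and is switched off by mTORC1, rose by 0.28 (SE 0.06, adjusted p = 0.00111). Their levels, 248 to 318 CPM against 209 to 268 CPM for EIF4E and 115 to 145 CPM against 79.8 to 125 CPM for EIF4EBP1, overlapped between populations. No mTOR gene passed under DMSO alone or against the other overexpression populations.

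Of 31 FOXO target genes tested over chemicals, 3 rose and 5 fell (25.8%, with 14.9% among all tested genes), and their median difference was -0.11. Genes that FOXO proteins activate and any that they repress were counted together, so these values give no direction of FOXO activity. Under DMSO 2 of 33 passed (6.06%, with 5.4% among all) and against the other overexpression populations 3 of 32 (9.38%, with 2.91% among all). Without NRG1 NNK replicate 2 the share among all genes in the latter comparison was 7.47%, and that of the list was not counted. The same list passed at 35.5% in GFP against HcRed cells and at 29% in FAT1 against GFP cells, where 25.5% and 34.7% of all genes did. IGF1R is counted in this list as well. TXNIP, an inhibitor of glucose uptake, fell by 1.28 under DMSO (SE 0.16, adjusted p = 3.14e-09), by 0.92 over chemicals (SE 0.11, adjusted p = 3.78e-10) and by 0.88 against the other overexpression populations (SE 0.12, adjusted p = 2.32e-07). Its DMSO levels were 43.1, 32.2 and 35.7 CPM in PIK3CA cells and 76.2, 86.8 and 123 CPM in HcRed cells, with no overlap. CCND2, the cell-cycle gene cyclin D2, rose by 1.02, 0.99 and 0.86 in the same comparisons (adjusted p = 0.000252, 1.44e-09 and 0.000109), from 18.8, 23.5 and 17.0 CPM in the DMSO wells of HcRed cells to 39.7, 33.6 and 44.1 CPM in those of PIK3CA cells. Both passed in every alternative fit of these comparisons. PLK1, a mitotic kinase, rose over chemicals by 0.62 (SE 0.15, adjusted p = 0.00107) and CCND1, cyclin D1, fell by 0.39 (SE 0.12, adjusted p = 0.0116). PLK1 did not pass under DMSO (0.71, adjusted p = 0.0692) or against the other overexpression populations (0.41, adjusted p = 0.149). CCND1 was at -0.15 under DMSO (adjusted p = 0.729) and at 0.40 against the other overexpression populations (adjusted p = 0.13), its call was lost without a filter on low counts, and against the same HcRed wells it was at -1 in NRF2 and, with 2 of the 3 chemicals, at -1.65 in FGFR1 cells. TNFSF10, a death ligand, fell by 1.39 against the other overexpression populations (SE 0.35, adjusted p = 0.0154). It lost this call without PIK3CA DMSO replicate 2, without PIK3CA NNK replicate 2 and in the DMSO wells alone.

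TXNIP and CCND2 also passed in comparisons without PIK3CA cells. TXNIP was lower in CDKN2A than in GFP cells under DMSO (-1.07, adjusted p = 1.24e-09), lower in NRF2 than in HcRed cells (-0.44, adjusted p = 0.00087) and higher in GFP than in HcRed cells (0.87, adjusted p = 3.94e-12). Under CSC, over 5 populations that included PIK3CA cells, it was lower than under DMSO (-0.75, adjusted p = 1.9e-12). CCND2 was higher in FGFR1 than in HcRed cells (1.02, adjusted p = 2.31e-06), lower in GFP than in HcRed cells (-4.24, adjusted p = 2.31e-15, from 6 counts over 9 GFP wells and 160 over 9 HcRed wells) and higher in FAT1 than in GFP cells (4.20, adjusted p = 4.88e-20).

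**Figure D3:**
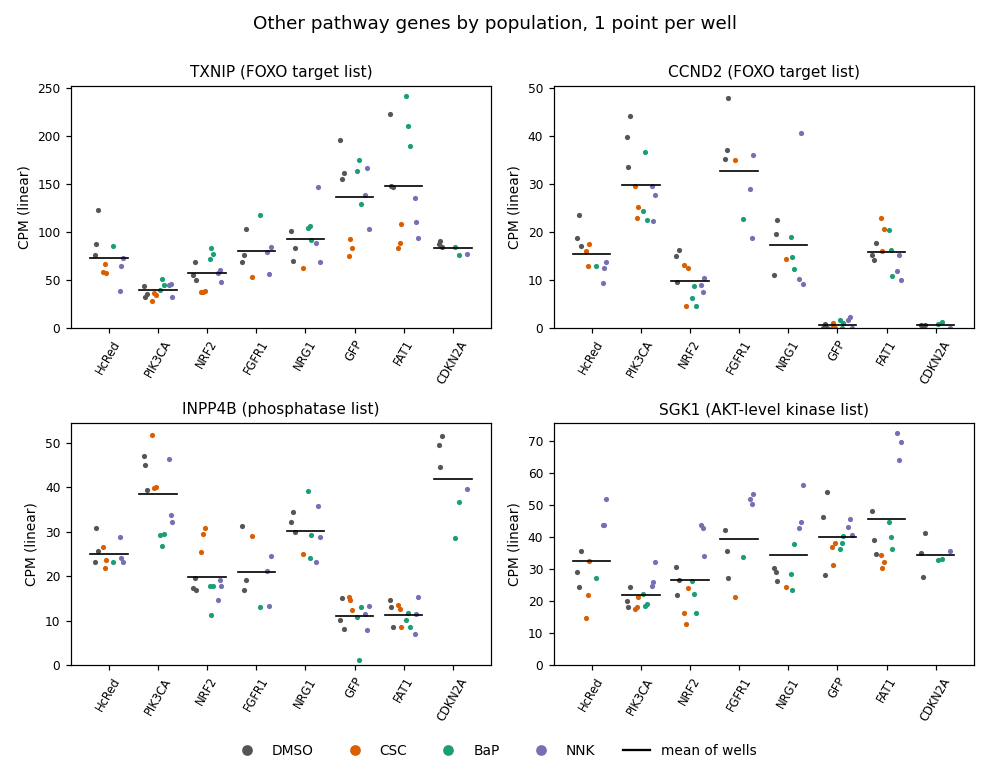
CPM (linear axis) of TXNIP, CCND2, INPP4B and SGK1 in each of the 82 wells by population, coloured by chemical, with the mean of each population as a line. PIK3CA cells have low TXNIP (28.1 to 45.4 CPM in the wells under DMSO, CSC and NNK) and high INPP4B and CCND2, while CCND2 is at most 2.23 CPM in GFP and CDKN2A cells.

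Epithelial markers moved with the same contrast. The summed level of the 15 bronchial epithelial markers was 843 to 1070 CPM in the 12 PIK3CA wells and 1370 to 1880 CPM in the 10 HcRed wells. Over chemicals 9 of the 15 fell and 3, KRT18, KRT8 and EPCAM, rose (80%, with 14.9% among all tested genes). The list also passed, in either direction, at 53.3% in FGFR1, 46.7% in NRF2 and 20% in NRG1 cells against HcRed. Among all genes 4.1%, 11.6% and 0.509% did so. Without NRG1 NNK replicate 2, 5.13% of all genes passed in NRG1 cells, and the share of the list was not counted in that fit. In FAT1 against GFP cells the list passed at 86.7%, with 34.7% among all genes. The 7 fibroblast markers summed to 2.81 to 13.4 CPM in PIK3CA and 1.47 to 8.09 CPM in HcRed wells, and the 1 that could be tested, DCN, was higher by 1.02. The part of these markers in the pathway results was not tested. In bulk counts fewer cells of a type and less RNA per cell cannot be told apart.

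In CDKN2A knockout cells, compared with GFP cells under DMSO (3 wells each), 2 of the 9 members rose, while 17.9% of all tested genes passed. CDKN2A encodes cell-cycle inhibitors. PIK3CB was at 18.4, 26.6 and 17.2 CPM in CDKN2A cells and at 10.1, 9.14 and 5.86 CPM in GFP cells, and it rose by 1.18 (SE 0.31, 95% interval 0.56 to 1.79, adjusted p = 0.00294). IRS1 was at 11.2, 9.36 and 10.2 CPM against 0.839, 2.49 and 2.20 CPM, and it rose by 2.20 (SE 0.55, 95% interval 1.11 to 3.29, adjusted p = 0.00153). Neither gene's groups overlapped. The PIK3CB call was lost without GFP DMSO replicate 3 (0.94, adjusted p = 0.0627), and that of IRS1 was not lost by leaving out any of the 6 wells.

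The call of IRS1, and not that of PIK3CB, depended on the control. With HcRed in place of GFP, an alternative chosen after the values were seen in which 14% of tested genes passed, PIK3CB was higher by 1.38 (adjusted p = 0.000758), while IRS1 did not pass at 0.84 (adjusted p = 0.133). IRS1 was itself at -0.74 in GFP against HcRed cells (SE 0.33, adjusted p = 0.0912; 25.5% of tested genes passed in that comparison, and none of the 9 members did). When all wells of both populations were fitted over the 4 chemicals, those with 2-digit numbers included and again chosen afterwards, 5 of the 9 members and 44.7% of all tested genes passed: PIK3CB (1.11, adjusted p = 6.52e-09), IRS1 (1.37, adjusted p = 4.65e-06), IRS2 (1.32, adjusted p = 1.6e-05) and PIK3CA (1.28, adjusted p = 5.66e-05) were higher, and PIK3R1 was lower (-0.85, adjusted p = 0.000206). This fit took each 2-digit well as a separate well. If these wells were repeats of a replicate, its p-values are too small. Under DMSO alone PIK3CA stood at 6.14, 5.76 and 6.36 CPM in CDKN2A cells against 2.52, 0.831 and 3.67 CPM in GFP cells, a difference of 1.25 (SE 0.55, adjusted p = 0.101).

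Summed over 6 wells, CDKN2A cells had the highest PIK3CB level of the 8 populations, 17.6 CPM (14.8 to 20.9). With NRG1 NNK replicate 2 included, the other 7 lay between 6.27 and 7.38 CPM with overlapping intervals. Without that well NRG1 cells were at 4.55 CPM (3.43 to 5.9), an interval below that of GFP cells (6 to 8.98). CDKN2A cells also had the highest IRS1 level, 9.29 CPM (7.24 to 11.7). PIK3CA cells followed at 5.20 CPM (4.14 to 6.46), and the order ended with GFP at 2.61 and FAT1 at 2.15 CPM. PIK3CB was 6.40 CPM in the CDKN2A well with a 1-digit number under NNK, below the 15.6 and 15.4 CPM of the pair under BaP.

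**Figure D4:**
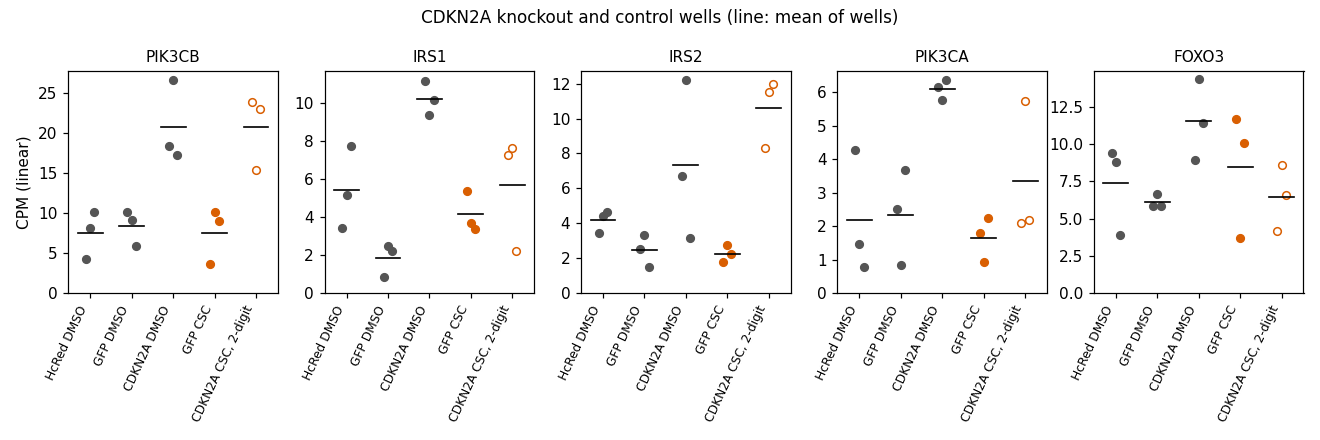
CPM (linear axis) of PIK3CB, IRS1, IRS2, PIK3CA and FOXO3 in single wells of HcRed, GFP and CDKN2A cells under DMSO and of GFP and CDKN2A cells under CSC, 3 wells a group, with their mean as a line; open points are wells with 2-digit replicate numbers. For PIK3CB the CDKN2A wells, 15.3 to 26.6 CPM, lie above every control well shown.

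In FAT1 knockout cells, which lack a cadherin-family protein, 34.7% of tested genes passed against GFP over the 4 chemicals, and 1 of the 9 members did. IRS2 ranged from 1.13 to 11.5 CPM with a median of 4.28 CPM in the 12 FAT1 wells and from 0.883 to 3.32 CPM with a median of 2.18 CPM in the 12 GFP wells. The ranges overlapped. It rose by 0.84 (SE 0.29, 95% interval 0.26 to 1.42, adjusted p = 0.0187) and passed in all 24 fits without 1 well. It did not pass in the DMSO wells alone (0.15, adjusted p = 0.914) or with HcRed as control (0.43, adjusted p = 0.42). With HcRed as control, where 27% of tested genes passed, IRS1 was lower in FAT1 cells (-1.11, adjusted p = 0.00666), while against GFP its difference was -0.32 (adjusted p = 0.476).

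The other overexpression populations gave no call among the members against HcRed. In NRF2 cells, with 11.6% of tested genes passing, the 9 differences lay between -0.84 and 0.26. In FGFR1 cells (4.1% passing) they lay between -0.84 and 0.40. In NRG1 cells (0.509% passing) they lay between -0.89 and 0.85. Without NRG1 NNK replicate 2 the share of passing genes in NRG1 cells was 5.13%, still no member passed, and the PIK3R1 difference changed from 0.34 to -0.08 and that of FOXO3 from 0.28 to -0.12.

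**Figure D5:**
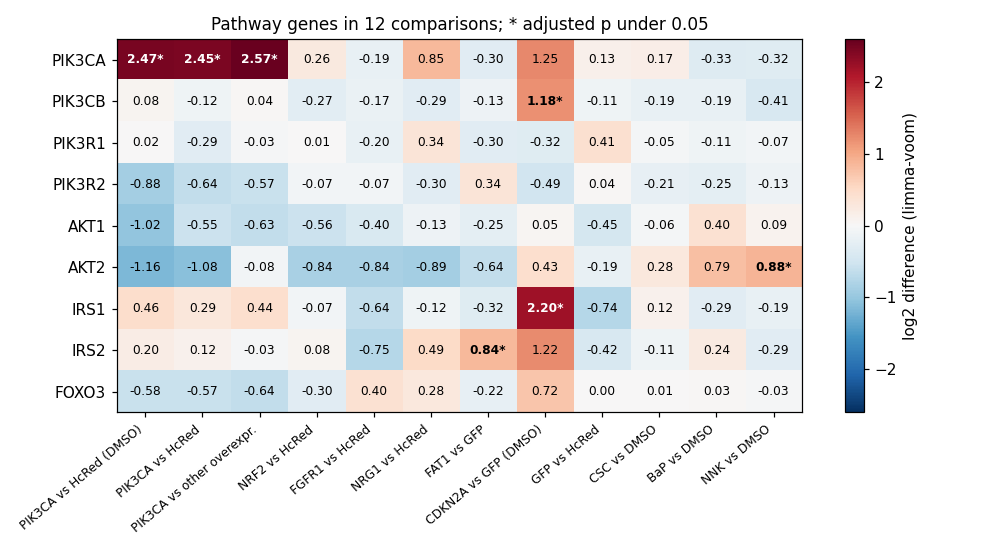
Log2 differences (limma-voom) of the 9 genes in 12 comparisons as colour and printed value; an asterisk marks an adjusted p under 0.05. Comparisons without "(DMSO)" in their name pool the chemicals or, for the chemicals, the populations, and 7 of the squares shown carry an asterisk.

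Under the chemicals, pooled over populations, a single member passed. CSC, the particulate fraction of smoke, was compared with DMSO in 5 populations (15 wells each); 5.81% of tested genes passed and no member did, with differences from -0.21 to 0.28. BaP, a polycyclic hydrocarbon, was compared in 5 populations; 9.16% passed and no member did, with differences from -0.33 to 0.79, the highest being that of AKT2 (SE 0.35, adjusted p = 0.164). NNK was compared in 7 populations (21 wells each); 7.22% passed, and the share of these that rose was 42.5% with TMM factors and 57.2% with RLE factors. AKT2 was the member that passed. It ranged from 0 to 4.75 CPM with a median of 1.65 CPM under NNK, over 44 counts, and from 0 to 3.87 CPM with a median of 0.772 CPM under DMSO, over 31 counts. The ranges overlapped almost fully. Its mean was higher under NNK in 6 of 7 populations, and the difference was 0.88 (SE 0.29, 95% interval 0.30 to 1.47, adjusted p = 0.0491). This call was at the limit of the test: it was 0.80 (adjusted p = 0.0438) without NRG1 NNK replicate 2, and it held in 17 of 42 fits without 1 well and in 2 of 6 other fits, with edgeR giving 0.74 (adjusted p = 0.2).

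PIK3CB had a lower mean under NNK in 6 of 7 populations, NRG1 being the exception with NRG1 NNK replicate 2 included. That well held 21.7 CPM. The other NRG1 wells under NNK held 1.36 and 3.31 CPM, against 3.23, 7.13 and 9.14 CPM under DMSO. Over all 7 populations PIK3CB ranged from 1.36 to 21.7 CPM with a median of 5.04 CPM under NNK. Under DMSO it ranged from 3.23 to 14.9 CPM with a median of 8.16 CPM. The difference was -0.41 (SE 0.18, adjusted p = 0.173) and did not pass. Without NRG1 NNK replicate 2 it was -0.53 (SE 0.17, adjusted p = 0.0195), in a fit where 19.9% of tested genes passed in place of 7.22%, and with the 2-digit wells as separate wells it was -0.57 (adjusted p = 0.0103).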

How the data were processed

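For each well the authors deposited whole-number UMI counts by gene symbol, without normalization. According to the study's methods and processing notes, the authors' reads were aligned with BWA aln 0.7.10 to RefSeq transcripts of hg19, and each UMI added 1 count to a gene within a well. Since only 3′ ends are counted, levels here are CPM of the well total without correction for length, and levels were not compared between genes.

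Wells were grouped by the labels' population and chemical. Main fits used limma-voom 3.58.1 (edgeR 4.0.16 for TMM factors, R 4.3.3) on the compared groups, with chemical or population as covariate, genes of mean count above 1, tests of both directions and Benjamini-Hochberg adjustment over all tested genes. Alternatives were edgeR's quasi-likelihood test, DESeq2 1.42.0, no filter, RLE factors, a replicate block, DMSO wells alone, the 2-digit wells and each well left out. The fitting code was tested on simulated data. The members, lists and tests were chosen with earlier results of these data known. All members were named, and up to 4 genes of each of 6 pathway lists with the smallest adjusted p in the PIK3CA comparisons. Genes most like a member were to be named for members of at least 10 CPM on average, which none reached. Gene positions came from a GENCODE annotation of hg19. 1 result of the pathway lists is not reported here.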

Additional observations from a re-analysis of the deposited data

Results flagged for a closer look

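Some wells with 2-digit replicate numbers, which entered no main comparison, had members above every control well under the same chemical. This was so in 6 of the 45 combinations of a member and a group of such wells (13.3%), and it was not tested. The same share over all genes was not computed, so the 13.3% has no value to be set against. In the CDKN2A wells under CSC, PIK3CB was at 15.3 CPM or more against at most 10.1 CPM in GFP wells, and IRS2 was at 8.31 CPM or more against at most 2.75 CPM. In the pair of CDKN2A wells under NNK, PIK3CB was at 8.30 CPM or more (GFP at most 7.06 CPM), IRS1 at 4.43 CPM or more (at most 3.35 CPM) and PIK3CA at 2.90 CPM or more (at most 2.23 CPM). The CDKN2A well with a 1-digit number under NNK held 6.40 CPM of PIK3CB, within the GFP range. It held 7.67 CPM of IRS1 and 6.40 CPM of PIK3CA, above the GFP wells. In the pair of FGFR1 wells under BaP, IRS1 was at 4.09 CPM or more, against at most 4.03 CPM in HcRed wells (2 of these 3 also had 2-digit numbers), a gap smaller than the worth of 1 count. The FGFR1 well with a 1-digit number under BaP held 1.73 CPM of IRS1.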

How the results depend on the processing

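Of the 126 pairs of a member and a comparison, 7 passed in the main fits and 110 passed in none of the 363 fits run. The count of genes passing over all genes moved by more than 1.5 times as follows; the cause was not tested. With DESeq2 it was 341 for PIK3CA against HcRed under DMSO, 286 for FGFR1, 1247 for CDKN2A and 0 for the NNK response of PIK3CA cells. In DMSO wells alone, with fewer wells fitted, it was 551 for NRF2, 104 for FGFR1, 349 for NRG1, 1570 for FAT1 and 1202 for GFP. With the 2-digit wells separate or summed by first digit it was 1134 or 1035 for CSC, 1926 or 1872 for BaP and 1392 or 1325 for NNK. Without a filter it was 2145 for NNK and 0 for the NNK response. With edgeR it was 1 for the CSC response. For CDKN2A against GFP over all wells and chemicals, chosen after seeing the data, it was 5007.

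Leaving out 1 well gave 199 to 842 genes for PIK3CA against the other overexpression populations, 33 to 573 for NRG1, 687 to 2245 for NNK, and 0 to 3 for either response. The highest counts of the first 3 were those without NRG1 NNK replicate 2, and the lowest of NRG1 that without HcRed NNK replicate 2. PIK3CA DMSO replicate 2 (199) and PIK3CA NNK replicate 2 (215) lowered the first. PIK3R1 in CDKN2A cells, at -0.32 and not passing, ranged from -0.5 to 0.01, the sign turning without GFP DMSO replicate 1.

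The wells of a number did not pair, with correlations of their deviations from -0.11 to 0.1. With replicate number as a block, 1 gene passed for the CSC response and 2 for the NNK response; PIK3R2 in PIK3CA cells (-0.69, adjusted p = 0.0456 by limma-voom) and IRS2 in CDKN2A cells (1.28, adjusted p = 0.0411) passed, and AKT2 under NNK did not (0.86, adjusted p = 0.0589). No other member's call changed. Counts of 2 to 8 per well limit the members: AKT2, at 139 counts in all, had intervals wider than 1 on the log2 scale in each comparison. DESeq2 gave no adjusted p for some thinly covered genes, AKT2 under NNK among them. The Spearman likeness was not run.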
